A study of Mus musculus with 4 samples.

Results

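The guanylate-binding proteins and immunity-related GTPases are represented here by 10 mouse genes, Gbp2 to Gbp9, Irgm1 and Igtp. They were chosen by symbol, and their Ensembl identifiers were looked up in GENCODE M21. All 10 were found among the 55471 genes of the deposited count table, and all 10 had counts in every library. The table holds 4 RNA-seq libraries of mouse brain cells captured on magnetic beads by CD11b, a surface protein of microglia and other myeloid cells, and all 4 form 1 group. The mice, 10 to 13 weeks old, had received PLX5622, a drug that blocks the kinase CSF1R and depletes microglia, for 7 days, and cells were collected 10 days after the drug was stopped, 17 days in all. Strain and sex of the animals are not stated in the labels, and no untreated group was analysed here, so the values are levels and differences between libraries, not effects of the drug. Whether the libraries stem from different animals is not stated in the labels, and p-values given here therefore refer to the variation among 4 samples, some or all of which may be technical.

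Guanylate-binding proteins (GBPs) and immunity-related GTPases (IRGs) are 2 families of interferon-induced GTPases that act inside the cell. They assemble on the membranes of vacuoles that hold parasites or bacteria and help to break them open, and GBPs also promote activation of inflammasomes. Interferon-gamma is known to act on promoters through gamma-activated sites (GAS), and type I interferons act foremost through interferon-stimulated response elements (ISRE). In the brain, microglia are among the cells that express them during infection with Toxoplasma.

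The genes lie in 3 places in the mouse genome. In GRCm38 coordinates, Gbp5 (chr3:142493978-142522344), Gbp7 (chr3:142530342-142550149), Gbp3 (chr3:142560026-142573209) and Gbp2 (chr3:142620602-142638008) stand in a row on the plus strand of chromosome 3. Gbp8 (chr5:105014150-105139540), Gbp9 (chr5:105077630-105139539), Gbp4 (chr5:105115767-105139586) and Gbp6 (chr5:105270702-105293698) are on the minus strand of chromosome 5, where the spans of the first 3 overlap. Irgm1 (chr11:48861968-48871683, minus strand) and Igtp (chr11:58199556-58207591, plus strand) are on chromosome 11. All 10 are annotated as protein coding.

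The sequences just upstream of the RefSeq starts are shown because they hold the letters of the elements through which interferons are known to act. RefSeq promoter windows of GRCm38.p6, 250 bases before to 50 bases after a start, were at hand for 6 of the 10 genes (Gbp2, Gbp3, Gbp5, Gbp7, Irgm1 and Igtp) and not for Gbp4, Gbp6, Gbp8 and Gbp9. The RefSeq starts differ in part from the ends of the GENCODE gene spans given above: along the gene they lie 18 bases downstream of the GENCODE start in Gbp3, 61 in Gbp2, 263 in Irgm1 and 2956 in Gbp5, 6 bases upstream of it in Gbp7, and on it in Igtp. The stretch of Gbp5 thus lies inside its GENCODE span, as does that of Irgm1, while those of Gbp2 and Gbp3 run across the GENCODE start. The sequences below are on the strand of the gene, 5′ to 3′, end 1 base before the start, and have in capitals the letters of an ISRE (GAAA, any 2 bases and GAAA, or on the other strand TTTC, any 2 bases and TTTC) or of a GAS (TTC, any 3 bases and GAA, which reads alike on both strands).
Gbp2, chr3:142620533-142620662 (+ strand): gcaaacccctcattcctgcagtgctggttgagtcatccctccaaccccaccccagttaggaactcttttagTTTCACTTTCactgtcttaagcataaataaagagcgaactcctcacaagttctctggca
Gbp3, chr3:142559914-142560043 (+ strand): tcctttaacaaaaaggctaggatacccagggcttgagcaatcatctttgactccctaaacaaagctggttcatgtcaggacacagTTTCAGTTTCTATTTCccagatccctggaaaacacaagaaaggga
Gbp5, chr3:142496684-142496933 (+ strand): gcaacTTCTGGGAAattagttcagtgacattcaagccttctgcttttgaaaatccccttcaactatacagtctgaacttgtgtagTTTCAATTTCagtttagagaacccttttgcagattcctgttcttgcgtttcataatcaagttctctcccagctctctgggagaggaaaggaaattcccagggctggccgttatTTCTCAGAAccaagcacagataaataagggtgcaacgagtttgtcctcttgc
Gbp7, chr3:142530206-142530335 (+ strand): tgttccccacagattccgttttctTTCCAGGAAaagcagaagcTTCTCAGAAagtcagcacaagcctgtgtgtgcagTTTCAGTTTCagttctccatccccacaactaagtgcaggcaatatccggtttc
Irgm1, chr11:48871421-48871550 (− strand): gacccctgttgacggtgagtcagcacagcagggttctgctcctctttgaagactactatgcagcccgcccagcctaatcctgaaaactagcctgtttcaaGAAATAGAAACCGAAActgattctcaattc
Igtp, chr11:58199426-58199555 (+ strand): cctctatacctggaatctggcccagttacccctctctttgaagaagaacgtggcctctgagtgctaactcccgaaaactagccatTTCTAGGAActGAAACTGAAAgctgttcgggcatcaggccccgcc

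All 6 of these genes held ISRE letters in a window, against 1079 of 27025 genes with a window (3.99%). GAS letters stood in 3 of the 6, Gbp5, Gbp7 and Igtp, against 2582 of the 27025 genes (9.55%), and those 3 genes held both motifs, against 166 genes (0.614%). Counted from the RefSeq start, the ISRE letters of Gbp2 began 59 bases before it, those of Gbp7 53 bases and those of Igtp 34 bases before it. Gbp3 and Irgm1 each held a pair of overlapping ISRE matches, the first of which began 45 bases before the start in Gbp3 and 30 bases before it in Irgm1. Gbp5, whose RefSeq and GENCODE starts are farthest apart, had its ISRE letters 165 bases before the RefSeq start and GAS letters on either side of them, 245 and 52 bases before it. In Gbp7 the GAS letters began 106 and 87 bases before the start, upstream of the ISRE, and in Igtp 45 bases before it. Gbp3 has a second RefSeq window, and it held neither motif. Among the other GBP and IRG genes with a window, 6 of 9 held ISRE letters and 4 of 9 held GAS letters. Of the type I interferon genes described further on, 8 of 13 with a window held ISRE letters and 2 held GAS letters. Of the other interferon-gamma targets, 1 of 13 held ISRE letters and 4 held GAS letters. Among 12 markers of homeostatic microglia, 7 had a window, of which 0 held ISRE letters and 1 held GAS letters. A match is a description of the letters in a window of 300 bases and not a measurement of binding.

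**Figure D1:**
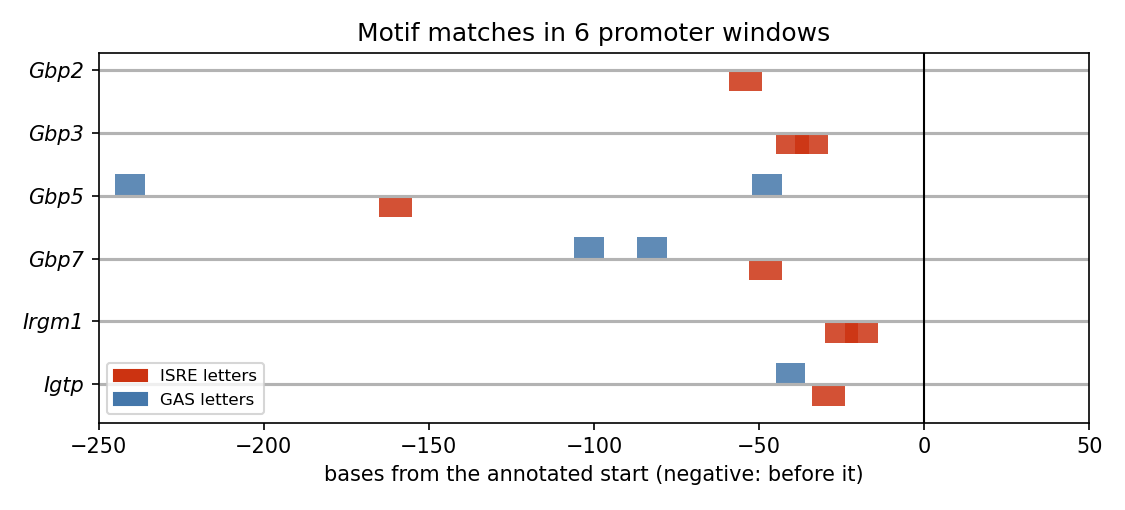
Positions of ISRE letters (red, drawn under each line) and GAS letters (blue, drawn over it) in the RefSeq promoter windows of 6 GTPase genes, in bases from the RefSeq start. All 6 windows hold an ISRE match, within 60 bases of the start except in Gbp5, and 3 hold a GAS match.

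The 4 libraries held 24412573, 23036202, 23585261 and 24487418 counts. Levels are given in counts per 1000000 counts of a library (CPM) on library sizes scaled by edgeR's trimmed mean of M values (TMM), and 3 counts, the limit that a count of 0 allows, correspond to 0.123, 0.130, 0.127 and 0.123 CPM of the unscaled libraries. All 12 markers of homeostatic microglia were detected, with a summed level of 45180, 39620, 44230 and 36470 CPM in libraries 1 to 4. Markers of other cell types were present in every library and uneven between them. Library 3 held the least endothelial signal (216.6 CPM over 10 markers, against 801.8 to 941.1 in the other libraries), the least choroid plexus signal (3279 CPM over 6 markers, against 15730 to 21970) and the least pericyte and smooth muscle signal (87.2 CPM over 6 markers, against 385.3 to 605.6). Erythroid markers, 5 in all, summed to 364.7, 174.4, 32.5 and 65.8 CPM in libraries 1 to 4, highest in library 1 and lowest in library 3. Library 1 held the most signal of border-associated macrophages (667.6 CPM over 7 markers, against 266.0 to 319.2) and of T and NK cells (27.3 CPM over 12 markers, against 11.6 to 19.4). None of these markers was at 0 counts over all 4 libraries. Intervals and floors given here cover counting error only, since the reads carry no molecular identifiers and several may come from 1 molecule.

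The GTPase genes were all expressed, at widely different levels. Irgm1 had the highest mean, 88.9 ± 30.9 CPM (SD, n = 4), and Gbp6 the lowest, 1.70 ± 0.424 CPM. Together the 10 genes summed to 320.5, 368.7, 482.7 and 414.0 CPM in libraries 1 to 4, so that on TMM scaling library 3 was highest and library 1 lowest. In bulk RNA, fewer cells of a type and less RNA per cell cannot be told apart, and this holds for every level given here. Differences between the libraries were modest. The median ratio of the highest to the lowest library was 1.43 over the 10 genes and also 1.43 over the 14112 genes tested.

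The chromosome 3 genes belong to the GBP cluster whose joint deletion in mice impairs control of Toxoplasma. Gbp7, linked in mice to assembly of the phagocyte oxidase, had 55.0, 58.0, 67.8 and 63.1 CPM in libraries 1 to 4. Gbp3 had 48.1, 40.0, 45.2 and 40.6 CPM. Gbp5, which promotes assembly of the NLRP3 inflammasome in mouse macrophages, had 30.2, 33.3, 41.4 and 39.7 CPM. These 3 genes differed in their order: library 3 was highest for Gbp7 and Gbp5, while Gbp3 was highest in library 1 (library 4 when scaled to homeostatic microglial genes) and lowest in library 2. Gbp2, which gathers on parasite vacuoles and carries a lipid anchor, had 22.4, 27.1, 32.1 and 28.3 CPM, again with library 3 highest and library 1 lowest. The 4 genes together summed to 155.6, 158.4, 186.4 and 171.6 CPM, a ratio of 1.20 between the highest and the lowest library.

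The chromosome 5 genes spanned a much wider range. Gbp9 had 49.0, 65.1, 84.7 and 74.5 CPM in libraries 1 to 4, with library 3 highest and library 1 lowest. Gbp4 had 10.6, 15.1, 12.9 and 15.1 CPM with libraries 4 and 2 level at the top (15.08 and 15.07 CPM) and library 1 lowest. Gbp8 and Gbp6 were the lowest of the 10. Gbp8 had 69, 57, 88 and 82 counts (2.82, 2.46, 3.87 and 3.26 CPM), highest in library 3 and lowest in library 2. Gbp6 had 29, 44, 49 and 39 counts (1.18, 1.90, 2.16 and 1.55 CPM), and its counting intervals in libraries 3 and 1 overlapped (exact Poisson, 95%, 1.596 to 2.85 and 0.792 to 1.70 CPM). Its level is uncertain, since 9.82% of the 50-base stretches of its longest transcript occur in no other gene. The rest are shared foremost with Gm43302, Gbp10 and Gbp11, and the longest transcripts of Gbp4 and Gbp9 also share stretches with Gbp6. In the other 9 genes the unique share was 78.8% to 99.1%. The 4 chromosome 5 genes summed to 63.6, 84.6, 103.5 and 94.4 CPM, a ratio of 1.63 between the highest and the lowest library, and Gbp9 made up most of each sum.

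The 2 IRG genes code for regulators of their family, which hold the effector IRGs inactive on the cell's own membranes. Irgm1, whose loss in mice impairs resistance to mycobacteria, had 55.3, 75.9, 127.7 and 96.8 CPM in libraries 1 to 4. Library 3 held 127.7 CPM against 55.3 CPM in library 1, a ratio of 2.31 (95% counting interval 2.17 to 2.46), the largest of the 10 genes. Igtp, also called Irgm3, had 46.1, 49.8, 65.0 and 51.3 CPM and a ratio of 1.41 between library 3 and library 1 (95% counting interval 1.31 to 1.53). For both genes library 3 was highest and library 1 lowest.

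**Figure D2:**
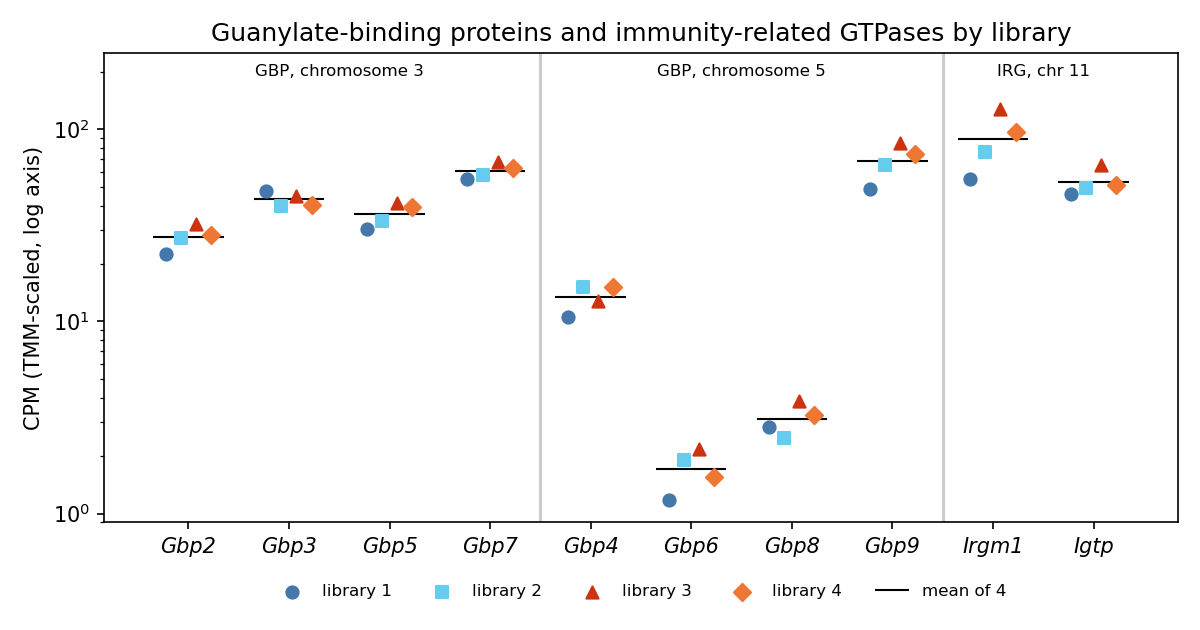
Level of each GTPase gene in each of the 4 libraries, in TMM-scaled CPM on a log axis, with symbols for libraries and a bar for their mean, grouped by chromosome. Library 3 is highest for 8 of the 10 genes and library 1 lowest for 8, with Gbp3 and Gbp4 the genes in which library 3 is not highest.

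Levels of different genes were compared per kilobase of exon. On that scale Igtp was highest, with 26.2 ± 4.09 CPM per kilobase (SD, n = 4), followed by Irgm1 (15.3 ± 5.32), Gbp3 (13.3 ± 1.18), Gbp9 (13.2 ± 2.93), Gbp2 (10.9 ± 1.59) and Gbp7 (10.9 ± 1.01). The ranges over the 4 libraries of Irgm1 and Gbp3, of Gbp3 and Gbp9, of Gbp9 and Gbp2 and of Gbp2 and Gbp7 overlapped. Within a library the order by mean held in 4 of 4 libraries for Gbp9 above Gbp2, in 3 of 4 for Irgm1 above Gbp3, in 2 of 4 for Gbp2 above Gbp7 and in 1 of 4 for Gbp3 above Gbp9. Lower levels per kilobase were found for Gbp5 (5.44 ± 0.798), Gbp4 (1.79 ± 0.288), Gbp8 (0.901 ± 0.177) and Gbp6 (0.285 ± 0.0712), and from Gbp7 down to Gbp6 the ranges of neighbours did not overlap. The order depended in part on which length was used: per length of the longest transcript, Irgm1 moved above Igtp, and Gbp5 above Gbp2 and Gbp7. Irgm1 has 5810 bases of exon in all and 2259 in its longest protein-coding transcript, and per kilobase of that transcript it was the highest of the 10 (39.4 ± 13.7 CPM per kilobase, against 26.2 ± 4.09 for Igtp). Gbp5 (6637 against 3055 bases) then stood at 11.8 ± 1.73 CPM per kilobase, above Gbp2 and Gbp7 by less than its SD. Gbp4, Gbp8 and Gbp6 were lowest by both lengths.

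**Figure D3:**
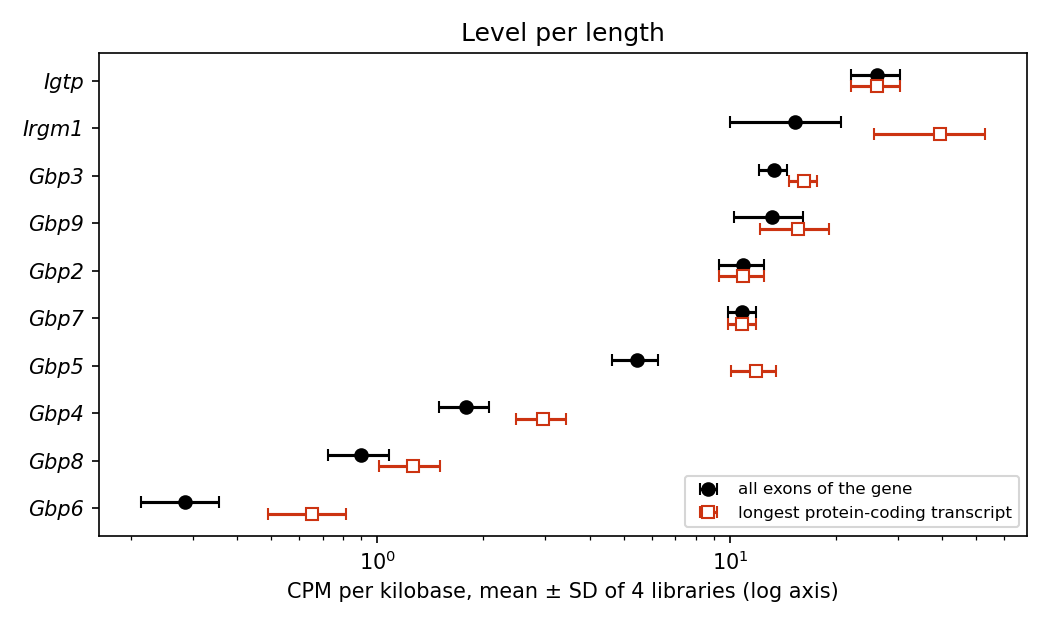
Mean level of each GTPase gene in CPM per kilobase on a log axis, with bars for the SD of the 4 libraries, per length of all exons (filled) or of the longest protein-coding transcript (open). By both lengths Gbp6 is lowest and Igtp and Irgm1 are the highest pair, in an order that depends on the length used.

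Whether any GTPase gene varied between the libraries more than genes of its level was tested with edgeR's negative binomial goodness of fit across all 14112 genes. None of the 10 passed (0 of 10, adjusted p under 0.05), where 3.28% of all genes tested did. At an unadjusted p under 0.05, 1 of the 10 passed, where 9.57% of all genes did. That gene was Irgm1 (unadjusted p = 0.0145, adjusted p = 0.236), whose unadjusted p was 0.0764 without library 1 and 0.0756 without library 3, and whose adjusted p lay between 0.189 and 0.889 over the alternatives. The other 9 genes had unadjusted p-values of 0.245 (Gbp9) to 0.912 (Gbp3) and adjusted p of 1.00. By edgeR's quasi-likelihood variance against its trend, 0 of the 10 passed with adjustment (0% of all genes tested) and 1, Irgm1, without (unadjusted p = 0.0490, where 4.66% of all genes passed). DESeq2 named 0 of the 10 as a dispersion outlier (0.0283% of all genes tested). The coefficient of variation over the libraries lay between 8.86% (Gbp3) and 34.8% (Irgm1). In simulated counts the goodness of fit called 10 of 100 genes raised 2-fold in 1 library, so it would miss most differences of that size. A p that misses the threshold does not show that the levels were equal. The counting intervals of the ratio of library 3 to library 1 cannot settle this, since they leave out the variation between samples. On TMM scaling that of Gbp3 held 1 (0.940, 0.865 to 1.02), and those of Gbp8 and Gbp4 began just above it, at 1.004 and 1.03.

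**Figure D4:**
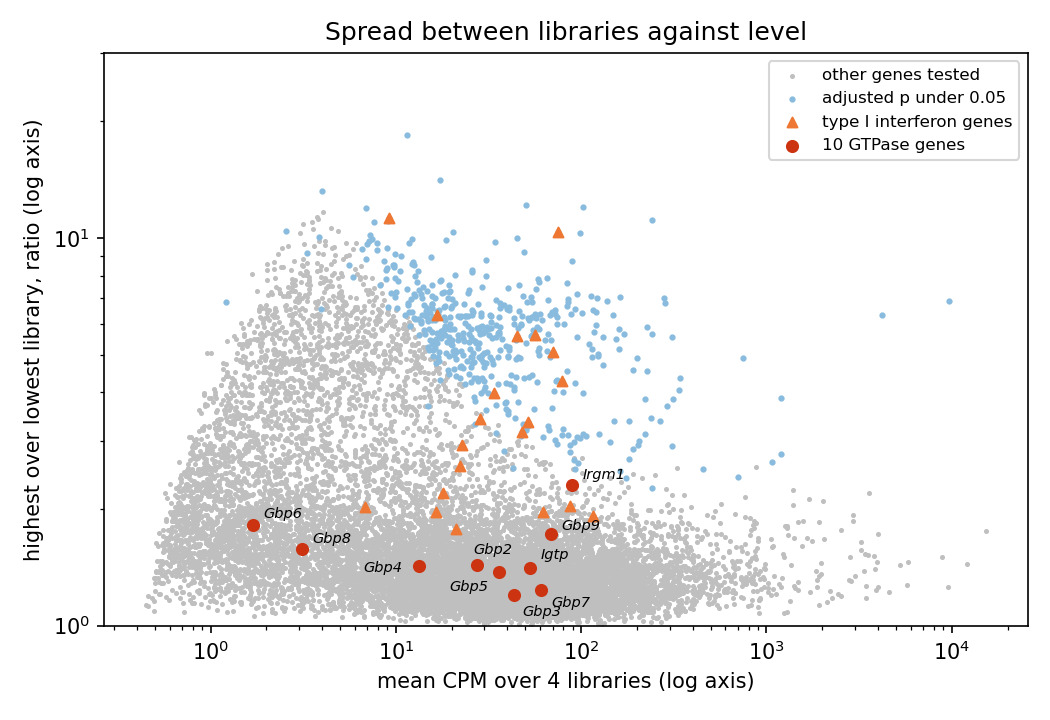
Ratio of the highest to the lowest library against mean CPM, both on log axes, for all 14112 genes tested (grey, and blue for those with adjusted p under 0.05), with the 20 type I interferon genes as triangles and the 10 GTPase genes as labelled red circles. The GTPase genes lie between 1.20 (Gbp3) and 2.31 (Irgm1), and none has an adjusted p under 0.05.

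The order of the libraries was alike for most of the GTPase genes. Library 3 was already known from earlier results of these data to be high in interferon genes. Libraries 3 and 1 were thus not chosen independently of these values, and the shares that follow are description only. Library 3 was highest for 8 of the 10, where it was highest for 28.3% of all genes tested, and library 1 was lowest for 8 of the 10, where it was lowest for 31.0%. Both held for 7 of the 10, where they held for 17.2% of all genes. Library 3 was lowest for 0 of the 10 (29.2% of all genes), and library 1 was highest for 1 of the 10, Gbp3 (34.2%). The median ratio of library 3 to library 1 was 1.39 over the 10 genes and 0.952 over all genes tested. Library 1 was lowest for 8 or 9 of the genes under every scaling and with any other single library left out. The 31.0% of all genes holds for the main setting only. Leaving out a library makes each remaining one lowest more readily. Scaling to the homeostatic microglial genes lowers library 1 for every gene, since its summed homeostatic level was the highest (45180 CPM). The place of library 3 depended on the scaling. Set to the homeostatic microglial genes, library 3 was highest for 3 of the 10 (Gbp6, Irgm1 and Igtp), where it was highest for 8.09% of all genes. Library 4 was highest for the others. That scaling raises library 4 the most for every gene, since its summed homeostatic level was the lowest (36470 CPM). Gbp3 kept a ratio of library 3 to library 1 under 1 in every scaling. Library 1, lowest in most of these genes, was the library with the most signal of border-associated macrophages, T and NK cells and erythroid cells. Library 3 was that with the least endothelial, choroid plexus, pericyte and erythroid signal. Their part in the order of the GTPase genes was not tested.

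The other members of both families were looked at as a list of 16 genes, all with counts and 11 tested. None of the 11 passed the test (0 of 11, and 0 by the quasi-likelihood variance and DESeq2) and 2 had an unadjusted p under 0.05. On TMM scaling library 3 was highest and library 1 lowest in 9 of the 11, where both held for 17.2% of all genes tested. The median ratio of library 3 to library 1 was 1.91 over the 11 (range 0.702 to 4.52). Irgm2, the remaining regulator IRG, had the highest CPM of the 16, with 71.7, 87.9, 101.3 and 89.2 CPM in libraries 1 to 4. Several less studied IRG genes were lower. 9930111J21Rik2 had 15.9, 35.6, 42.8 and 34.9 CPM (unadjusted p = 0.0196, adjusted p = 0.285) and its neighbour 9930111J21Rik1 had 5.997, 15.8, 18.1 and 17.98 CPM (unadjusted p = 0.0485, adjusted p = 0.512). In both of these library 1 was lowest, and they share sequence with each other and with a further copy, 46.7% and 20.2% of their transcripts being unique. Gm4951 had 9.63, 11.2, 23.1 and 17.2 CPM, Gm12185 had 4.65, 5.92, 7.48 and 6.03 CPM, and F830016B08Rik had 1.06, 3.20, 4.799 and 3.69 CPM (26 to 109 counts), the widest ratio of library 3 to library 1 in the list at 4.52. Iigp1, an effector IRG that coats parasite vacuoles, had 7.51, 9.72, 14.4 and 10.99 CPM, with library 3 highest and library 1 lowest. Ifi47, another effector, ran the other way, with 11.3, 9.03, 8.32 and 7.74 CPM, highest in library 1. Irgq, a divergent member, had 26.6, 31.8, 33.3 and 30.8 CPM.

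The lowest of the list could not be placed. The effectors Tgtp2 (1.98 ± 0.791 CPM) and Tgtp1 (0.717 ± 0.128 CPM) are near-identical copies with under 10% of their transcripts unique, and the same holds for Gvin1, a giant interferon-induced GTPase (0.944 ± 0.398 CPM). Gbp10 had 2, 3, 2 and 4 counts, Gbp2b had 1, 2, 2 and 1, Irgc1 had 4, 1, 1 and 1, and Gbp11 had 0, 0, 0 and 2 counts, at or near the floor of 3 counts.

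Of the interferon genes, Ifng and Ifnb1 were looked at, and both had few counts, while the chains of their receptors had far more. Ifng, the gene of interferon-gamma, had 10, 4, 4 and 3 counts in libraries 1 to 4 (0.408, 0.173, 0.176 and 0.119 CPM), and was thus highest in library 1. Ifnb1, the gene of interferon-beta, had 4, 10, 18 and 19 counts (0.163, 0.432, 0.792 and 0.754 CPM), and was lowest in library 1. Both were too low to be tested, and a count at this depth does not say which cells made the transcript. The interferon-gamma receptor chains Ifngr1 and Ifngr2 averaged 672.9 ± 64.6 and 192.0 ± 24.96 CPM, and the type I receptor chains Ifnar1 and Ifnar2 averaged 129.6 ± 22.5 and 134.2 ± 12.8 CPM (SD, n = 4 each). Il18, a cytokine that raises interferon-gamma production in T and NK cells, averaged 33.7 ± 4.16 CPM, and Il12rb1, a receptor chain for interleukin-12, had 4, 10, 4 and 5 counts. Of the 8 genes of this list, 5 were tested and 0 passed, 0 also without adjustment.

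Of 16 signalling and transcription factors of the interferon pathways, all tested, 1 passed. That gene, Irf7, which drives type I interferon genes, had 21.2, 45.2, 115.7 and 72.1 CPM in libraries 1 to 4 (adjusted p = 9.64e-06), and it also passed with any 1 library left out. By the quasi-likelihood variance, which 0% of all genes passed, Irf7 had an adjusted p of 0.889. By that variance and by DESeq2, 0 of the 16 passed. Irf8, a factor of the myeloid lineage, averaged 496.8 ± 81.0 CPM, the phosphatase gene Ptpn6 averaged 334.0 ± 32.1 CPM and Socs3, an inhibitor of cytokine signalling, averaged 327.4 ± 128.4 CPM. Socs3 was highest in library 2 (362.5, 489.1, 266.0 and 192.0 CPM, adjusted p = 0.0568). On TMM scaling library 3 was highest for 11 of the 16 (28.3% of all genes tested) and library 1 lowest for 10 (31.0% of all genes tested).

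Among 20 other genes known to be induced by interferon-gamma, 17 were tested, 2 passed and 6 had an unadjusted p under 0.05. By the quasi-likelihood variance and by DESeq2, 0 of the 17 passed. Nlrc5, the activator of MHC class I genes, had 15.7, 42.0, 76.7 and 52.4 CPM in libraries 1 to 4 (adjusted p = 4.58e-04, and 0.626 without library 1). Cxcl10, a chemokine that draws T cells, had 10.7, 26.9, 45.8 and 27.4 CPM (adjusted p = 0.0249). Its adjusted p was 1.00 without library 1, 0.0782 without library 2 and 0.137 without library 3. The genes of the list with the highest CPM did not pass: the Fc receptor gene Fcgr1 (473.0 ± 74.0 CPM), the MHC class II invariant chain gene Cd74 (342.8 ± 59.4 CPM) and the adhesion molecule gene Icam1 (161.4 ± 37.5 CPM). The median ratio of library 3 to library 1 was 1.28 over the 17 genes, with a wide range of 0.369 to 4.90, next to 1.39 over the 10 GTPase genes. Ubd, a ubiquitin-like modifier, had 0 counts in all 4 libraries.

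Genes known foremost for their response to type I interferon had larger ratios between the libraries. Of 20 such genes, 10 passed (3 without library 1, and 7 or 8 without any other library), all 10 with library 3 highest and library 1 lowest on TMM scaling, and their 3-over-1 ratio had a median of 3.26 over the 20, against 1.39 over the GTPase genes. The difference between these medians was not tested. By the quasi-likelihood variance and by DESeq2, 0 of the 20 passed. The 10 were Ifi204, Oas2, Oasl2, Ifit2, Xaf1, Rtp4, Mx1, Ifit3, Zbp1 and Oas3, and those with the highest CPM were Bst2 (116.1 ± 37.1 CPM), Ddx58 (86.9 ± 25.1 CPM) and Ifi204 (78.8 ± 45.4 CPM). The ratio of Irgm1, 2.31, lay within the range of these 20 genes (1.64 to 11.3), and those of Gbp9 (1.73) and Gbp6 (1.82) reached its lower end, while the other 7 GTPase genes lay below it.

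**Figure D5:**
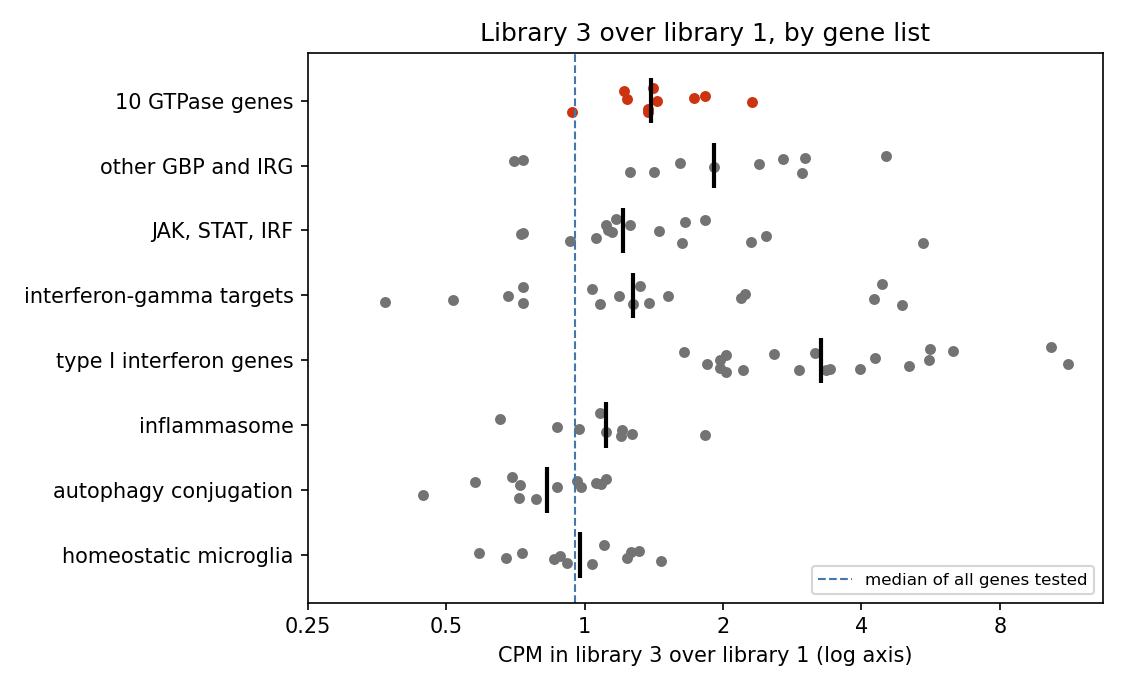
Ratio of CPM in library 3 to CPM in library 1 on a log axis, 1 point per tested gene, with a bar at the median of each list and a dashed line at the median of all genes tested (0.952). The 10 GTPase genes centre on 1.39, the other GBP and IRG genes on 1.91, the interferon-gamma targets on 1.28 (range 0.369 to 4.90) and the type I interferon genes on 3.26.

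Genes of the processes in which the GTPases act were all expressed, and 1 of them passed the test. Of 9 inflammasome and pyroptosis genes, 1 passed by the goodness of fit and 0 by the quasi-likelihood variance or DESeq2. That gene, Il1b, the precursor gene of interleukin-1 beta, was highest in library 2 (74.8, 143.5, 49.0 and 46.3 CPM in libraries 1 to 4, adjusted p = 0.00173), and it did not pass without library 2 (adjusted p = 1.00) or without library 4 (0.0513). Nek7, a partner of NLRP3, averaged 207.1 ± 22.6 CPM, the pore-forming Gsdmd 170.8 ± 20.2 CPM and Nlrp3 itself 121.2 ± 17.4 CPM. Looked at next were 12 autophagy genes, most of them of the conjugation machinery, which places IRGs and GBPs on vacuoles. Of these, 0 passed by the goodness of fit and 0 had an unadjusted p under 0.05. Those with the highest CPM were Gabarap (253.1 ± 39.8 CPM), Sqstm1 (202.1 ± 36.0 CPM) and Becn1 (125.6 ± 7.64 CPM). Library 1 was highest for 8 of the 12, where it was highest for 34.2% of all genes tested. Of 5 enzymes that attach or finish lipid anchors like those of Gbp2 and Gbp5, 0 passed and 0 had an unadjusted p under 0.05, with Pggt1b at 81.6 ± 5.92 CPM, Icmt at 79.8 ± 5.23 CPM and Fnta at 68.7 ± 14.0 CPM.

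The genes whose profile over the 4 libraries came closest to the mean profile of the 10 GTPase genes were Isoc1, Psap, Wdfy1, Vegfb, Ucp2, Kctd21, Padi2, Itpr2, Ybx1 and Gm5834. Likeness was measured over 4 libraries as the root mean square difference of deviations of log2(CPM + 0.5) from the gene's own mean, which was 0.00439 for Isoc1 and 0.0229 for the tenth, Gm5834, among 12502 genes. The mean GTPase profile was −0.26, −0.05, 0.24 and 0.06 on that log2 scale in libraries 1 to 4. Of the GTPase genes themselves, Gbp2 was closest to it (0.0260) and Irgm1 farthest (0.262). A profile over 4 libraries is easily matched: 1942 other genes lay closer to the mean profile than the median GTPase gene did.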

How the data were processed

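The authors deposited a table of raw read counts for Ensembl genes. The tools named in the submitters' processing notes are STAR 2.7.2b, featureCounts 1.6.5 and bcl2fastq 2.20.0.422, and the build is GRCm38. Per the labels' protocols, 300 ng of total RNA entered each library after poly(A) selection with a kit that marks strand. The strand setting, the annotation release and the handling of reads with several matches are named in none of the sources used here, so genes with close copies or overlapping neighbours are uncertain in level.

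From these counts, symbols, coordinates and exon lengths were taken by identifier from GENCODE M21 (55230 of 55471 genes matched). All unmatched genes stayed in the totals. In edgeR 4.0.16 under R 4.3.3, library sizes were scaled by TMM on all genes (factors 1.00, 1.01, 0.963 and 1.03), and 14112 genes were kept by filterByExpr. With 1 group there is no coefficient to test. The main test was the goodness of fit of an intercept-only negative binomial model with trended dispersion (chi-square, 3 degrees of freedom), with Benjamini-Hochberg adjustment over all genes tested. The goodness of fit was also run on simulated counts in which 100 genes were raised 2-fold and 100 were raised 4-fold, each in 1 library. It called 10 and 69 of these, and 2 of the 13912 unchanged genes. Alternatives were edgeR's quasi-likelihood variance against its trend, DESeq2 1.42.0 dispersion outliers, other scalings, no filter, and each library left out in turn. No 2 libraries held identical counts. The share of unique sequence of a gene is the share of 50-base stretches of its longest transcript found in no other gene's transcripts, on either strand. Promoter sequences are from RefSeq.

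The 10 GTPase genes and the gene lists were chosen with earlier results of these data known. Named are all 10, all other GBP and IRG genes with a count, all ligands and receptors, and of each other list the 3 highest in mean CPM and those that passed the test. Also named are the 10 genes closest in profile. Of the cell type marker lists only summed levels are given.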

Additional observations from a re-analysis of the deposited data

Results flagged for a closer look

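In the 65 genes named from the GTPase and other gene lists (marker genes and the genes close in profile aside), the highest or lowest of the 4 libraries was checked against the other 3 with Dixon's ratio, the gap to the nearest library divided by the whole range, for which chance passes the 95% critical value in about 1 of 20 genes. It was passed by 5 of the 65, none of them among the 10 GTPase genes, where Igtp came closest (0.724, library 3 highest). Library 3 stood apart for Ifngr2, a chain of the interferon-gamma receptor, with 229.4 CPM against 177.0 to 181.4 CPM in the other libraries (ratio 0.915). It also stood apart for Fcgr1, an Fc receptor gene induced by interferon-gamma, with 583.5 CPM against 427.9 to 442.8 CPM (ratio 0.904). The other 3 rest on few counts: Il12rb1 had 10 counts in library 2 against 4 or 5 elsewhere (ratio 0.869), Irgc1 had 4 counts in library 1 against 1 in each other library (ratio 0.965), and Gbp11 had 2 counts in library 4 and 0 elsewhere (ratio 1.00). Beyond the 65, the interferon lists hold 2 more genes past the critical value: Ifi44, lowest in library 1 with 3.998 CPM against 7.501 to 8.10 CPM (ratio 0.854), and H2-Aa, highest in library 1 with 254.0 CPM against 118.3 to 139.3 CPM (ratio 0.845). The autophagy list also holds such genes. Gabarapl2 was highest in library 1 with 23.95 CPM against 9.243 to 10.87 CPM (ratio 0.889). Gabarapl1 was lowest in library 3 with 46.05 CPM against 63.64 to 66.44 CPM (ratio 0.863).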

How the results depend on the processing

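No GTPase gene passed the spread test under any of the 12 settings run. Their median ratio of highest to lowest library ranged from 1.27 to 1.597 and that of library 3 to library 1 from 1.34 to 1.45. Library 3 was highest for 3 of the 10, in place of 8, when libraries were scaled to the homeostatic microglial genes. The summed level of those genes was lower in library 4 (36470 CPM) than in library 3 (44230 CPM). Why these sums differed was not tested. Over all genes, 463 passed by the goodness of fit, 0 by the quasi-likelihood variance, 4 were DESeq2 dispersion outliers, and 106 (without library 3) to 425 (without library 1) passed with 1 library left out; the cause was not tested. With total counts unscaled, the median log2 ratio of library 3 to library 1 over all genes tested was −0.13, in place of −0.07. Per kilobase levels of Gbp3, Gbp4, Gbp5, Gbp6, Gbp8 and Irgm1 moved by more than their SD when the length of the longest transcript was used. TMM on filtered genes and the transcript length were chosen after seeing the data. Depth limits Gbp6 and Gbp8 (29 to 88 counts a library) and the interferon ligands. No paired analysis was possible because all 4 libraries form 1 group.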

Other observations

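Gm5431, which was chosen after its values were seen and shares transcript sequence with 9930111J21Rik1 and 9930111J21Rik2, had 11.1, 15.3, 27.9 and 19.3 CPM in libraries 1 to 4. Gm43302, which overlaps 29.0% of the exon length of Gbp6 on the same strand, and Gm43802, which overlaps 11.4% of that of Gbp7, had 0 counts in all 4 libraries.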
